A study of Mesocricetus auratus with 21 samples.

Results

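The testes of *Mov10l1*-/- golden hamsters were followed from birth, 0 days postpartum (d.p.p.), to 9 d.p.p. by sequencing of whole-testis RNA. The comparison holds every library labelled knockout at these ages, 2 of 0 d.p.p. and 2 of 9 d.p.p., out of 21 libraries in the series. All genes were compared, and 16153 of the 22285 in the deposited table had enough counts to be tested. *Mov10l1*+/+ libraries of the same ages, 2 of 0 d.p.p. and 3 of 9 d.p.p., are given beside them. All 9 libraries were made from ribosomal-RNA-depleted RNA and read from a single end over 75 nucleotides. The study's methods name Ribo-Zero or QIAseq FastSelect for the depletion without giving the kit of each library. Whether the kit differed between the ages is therefore not known. The knockout allele lacks exon 20, which encodes part of the helicase domain, and descends from a single founder female outcrossed for 2 generations to outbred wild-type animals, so both groups compared here carry the same deletion in an outbred background.

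The code of the same 1 animal stands on both libraries of 9 d.p.p., so the spread between them is not a spread between animals. The newborn libraries came from 2 animals whose codes begin alike, which is called a litter here, although no source states that meaning. Litter and age therefore cannot be told apart in the knockout. The third wild-type library of 9 d.p.p. shares the beginning of its code with the knockout animal of that age, and the other wild-type libraries do not. The codes of the first 2 wild-type libraries of 9 d.p.p. share a different beginning with each other. In whole testis, fewer cells of a type and less RNA per cell cannot be told apart.

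MOV10L1 is an RNA helicase that binds piRNA precursors and is required for the making of piRNAs, the small RNAs that guide PIWI proteins to the transcripts and genes of retrotransposons. Around birth the germ cells of a rodent testis are gonocytes, which have stopped dividing and carry out piRNA-guided DNA methylation, and in the following days they become spermatogonia. Sertoli cells, the somatic cells that nurse the germ line, multiply during the same days.

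The sites targeted to make the allele are shown because they lie on both sides of the exon that was removed. They do not give the ends of the deletion, which the study established by sequencing. Single guide RNAs were aimed at targets in introns 19 and 20, on both sides of exon 20. The DNA targets follow in the 5′ to 3′ direction as the study's methods give them. The last 3 bases, which have the form NGG that Cas9 needs beside its target, are in capitals. Their positions on the assembly were not looked up, as no genome sequence was used.
Intron 19 target 1: gggtatcacatgacttgGGG
Intron 19 target 2: ggtgttgggatcatagtgGGG
Intron 20 target 1: tctccactcttccatgtgGGG
Intron 20 target 2: taccattacatttgtcagGGG

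The targeted gene was measured first. *Mov10l1* (ENSMAUG00000003667), which occupies positions 11073749 to 11134091 of scaffold KB708136.1 (plus strand, MesAur1.0), reached 12.9 and 11.9 CPM, counts scaled to the size of the library, in the newborn knockout libraries and 1.72 and 1.76 CPM at 9 d.p.p. In wild type it was 103 and 60.1 CPM at birth and 40.7, 44.1 and 22.5 CPM at 9 d.p.p. Each knockout library was below each wild-type library of its age, as its label states. The counts cover all exons of the gene, so reads from exons other than the deleted one still count.

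Between 0 and 9 d.p.p. 5120 genes rose in the knockout and 4827 fell, which are 31.7% and 29.9% and together 61.6% of the genes tested. These calls are from the quasi-likelihood test of edgeR with a threshold of 0.01 on the adjusted p. In the wild type, with only the first 2 libraries of 9 d.p.p., 27.3% of 16438 genes rose and 25.3% fell, 52.6% in all. Wild-type log2 changes and calls below leave out the third library as well, unless stated otherwise. For every gene called in the knockout the 2 libraries of one age lay wholly above the 2 of the other. This was close to fixed by the calls, which were made with the same 4 libraries, and is no further evidence. At least 4-fold changes were found for 829 rising and 1505 falling genes, and at least 16-fold changes for 147 and 201. When the counts of the single 9 d.p.p. animal were summed to 1 library and the spread was estimated with the 5 wild-type libraries, called the summed fit below, 4333 genes rose (25.0%) and 3850 fell (22.2%) of 17342, and 4314 and 3828 of them were among the calls above.

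How small changes divide between rises and falls depended on the scaling between ages. The 10 most abundant genes took 12.3% and 11.5% of all counts in the newborn libraries and 29.1% and 28.5% at 9 d.p.p., and a single gene without a symbol rose from 2.89% and 2.75% to 12.7% and 11.1%. TMM scaling, which allows for such genes, put the median log2 change of all genes at -0.02. Scaling by library totals alone put it at -0.58 and left 2598 rises against 8094 falls, and totals without the most abundant genes put it at -0.22 with 4120 rises and 5881 falls. Rises made up 51.5%, 24.3% and 41.2% of the calls in turn. The changes described below are relative to the TMM median.

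**Figure D1:**
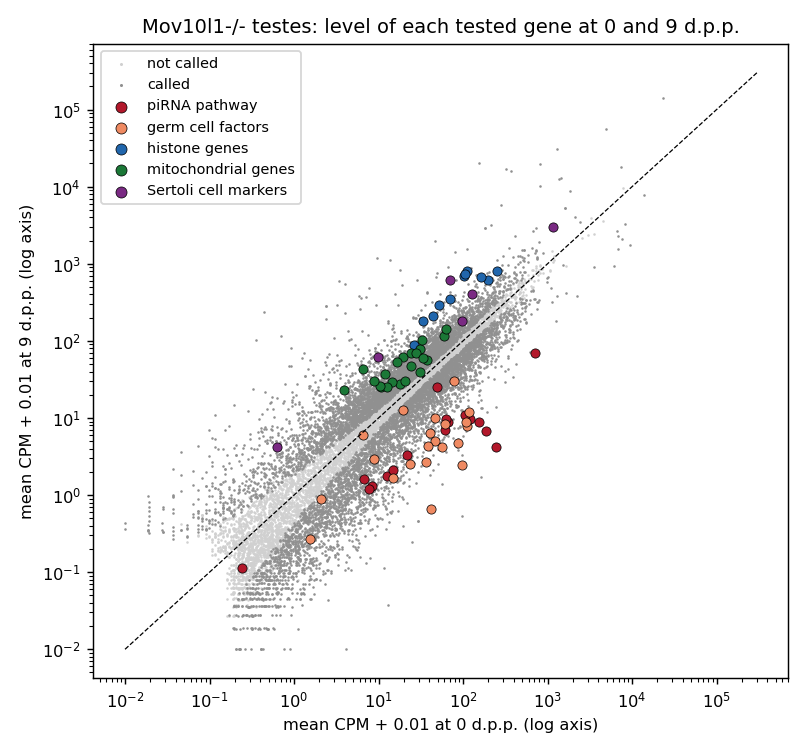
Mean CPM of each tested gene in the 2 newborn (horizontal axis) and the 2 9 d.p.p. (vertical axis) Mov10l1-/- libraries, both on log axes after adding 0.01. Genes of the piRNA pathway and germ cell factors lie below the dashed line of equal level, and histone genes (11 of linker, H2A and H2B histones), mitochondrial genes and Sertoli cell markers lie above it.

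Gene symbols were known for 1027 of the tested genes, of which 366 rose and 478 fell. They come from the study's own lists, and 821 of them are in its list of genes that differ between genotypes at 9 d.p.p., a choice made with the same knockout libraries. The counts of the gene groups below, and above all their difference from the wild type, are therefore no independent evidence of a direction. Each count is to be read beside the 31.7% of all genes that rose and the 29.9% that fell. It is also to be read beside the 366 rises and 478 falls of the 1027 genes with a symbol, from which all members were drawn.

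The genes of the piRNA pathway fell together. Of 17 members measured and tested, 16 fell, none rose, and *Piwil3* did not pass the test, against the 29.9% of all genes that fell. The median log2 change was -2.82, beside -0.02 over all genes. Their summed level went from 2048 and 1619 CPM at birth to 162 and 183 CPM at 9 d.p.p. in the knockout, and from 2034 and 1745 to 476, 429 and 410 CPM in the wild type. At birth the sums of both genotypes overlapped, and at 9 d.p.p. they did not.

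Among the PIWI proteins, which carry piRNAs, *Piwil4*, the nuclear protein of gonocytes that directs DNA methylation, changed most. *Piwil4* (KB708288.1, 532888 to 576799, minus strand) was at 279 and 208 CPM in the newborn knockout libraries and 3.94 and 4.50 CPM at 9 d.p.p. Its log2 change was -5.83 ± 0.166 (standard error, adjusted p = 5.3e-06), the largest fall of the list. The wild type went from 383 and 412 CPM to 16.8, 10.1 and 39.5 CPM, a log2 change of -4.88 with the first 2 of these 3, so this gene fell in both genotypes.

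*Piwil2*, which takes part in the amplification of piRNAs, went from 140 and 101 to 8.72 and 10.4 CPM in the knockout (log2 change -3.64 ± 0.170), and in the wild type from 184 and 158 to 35.8, 29.0 and 40.2 CPM. *Piwil1*, which in rodents is best known from meiotic and postmeiotic cells, went from 16.8 and 12.6 to 1.95 and 2.20 CPM (log2 change -2.81 ± 0.172). *Piwil3*, a PIWI gene that mice and rats lack, was at 0.318 and 0.144 CPM at birth and 0.0904 and 0.118 CPM at 9 d.p.p. At so few reads its log2 change of -1.11 ± 0.567 did not pass the test (adjusted p = 0.12).

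The Tudor domain proteins build the granules in which piRNAs are made. *Rnf17* fell from 206 and 165 to 6.24 and 7.13 CPM, a log2 change of -4.78 ± 0.134. *Tdrd1* fell from 116 and 93.6 to 10.3 and 11.7 CPM (-3.23 ± 0.123 on the log2 scale). *Tdrd5* and *Tdrd9* had log2 changes of -3.12 and -2.89. *Tdrd7*, which unlike these is transcribed in other tissues such as the lens, was the member that fell least of those that passed, from 49.95 and 48.2 to 24.6 and 25.6 CPM (log2 change -0.96 ± 0.0776). In the wild type *Tdrd7* had a log2 change of -0.72.

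The other factors of piRNA production and function followed the same course. *Mael*, a granule protein, fell from 172 and 136 to 8.57 and 9.02 CPM, with a log2 change of -4.11 ± 0.125, while the wild-type libraries went from 132 and 127 to 22.8, 22.6 and 20.1 CPM. *Tex15*, which acts with PIWIL4 in DNA methylation, fell from 784 and 645 to 65.8 and 74.5 CPM (log2 change -3.33 ± 0.125). *Henmt1* and *Pnldc1*, which methylate and trim the 3′ ends of piRNAs, had log2 changes of -2.67 and -2.69. *Gpat2*, *Btbd18* and *Gtsf1* had log2 changes of -2.68, -2.68 and -2.05. *Btbd18* was at 24.2 and 19.0 CPM in the newborn knockout libraries and at 10.3 and 5.00 CPM in the newborn wild type, so the knockout started higher and ended lower, at 3.18 and 3.49 CPM against 9.20, 8.71 and 5.32 CPM.

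RNA-binding and identity factors of germ cells fell as well. Of 21 members 20 fell and *D1Pas1* did not pass the test, with a median log2 change of -3.14. In the summed fit 17 fell, and *Rbm44*, *Tfap2c* and *Nxt2* did not pass. *Nxf7*, of the family of nuclear RNA export factors, had the largest fall among genes with a symbol, from 47.4 and 35.4 to 0.597 and 0.711 CPM (log2 change -5.96 ± 0.193, adjusted p = 5.4e-06). *Dppa4*, a chromatin-associated protein of pluripotent and early germ cells, fell from 113 and 80.9 to 2.50 and 2.37 CPM (log2 change -5.30 ± 0.179). In the wild type both also fell, by log2 changes of -5.12 and -3.78.

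The helicase gene *Ddx25* went from 102 and 74.1 to 4.31 and 5.28 CPM in the knockout (log2 change -4.18 ± 0.178) and from 63.2 and 46.5 to 21.2, 18.2 and 21.5 CPM in the wild type. *Ddx4*, the Vasa helicase used as a marker of all germ cells at these ages, went from 128 and 95.4 to 7.49 and 8.38 CPM (log2 change -3.80 ± 0.149). *Dazl*, a translational regulator, went from 135 and 101 to 11.1 and 12.7 CPM (log2 change -3.29 ± 0.15). For each of these 3 genes the 9 d.p.p. knockout libraries lay below all 3 wild-type libraries of that age, while at birth the knockout libraries of *Ddx4*, *Ddx25* and *Dazl* reached above the wild-type ones.

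**Figure D2:**
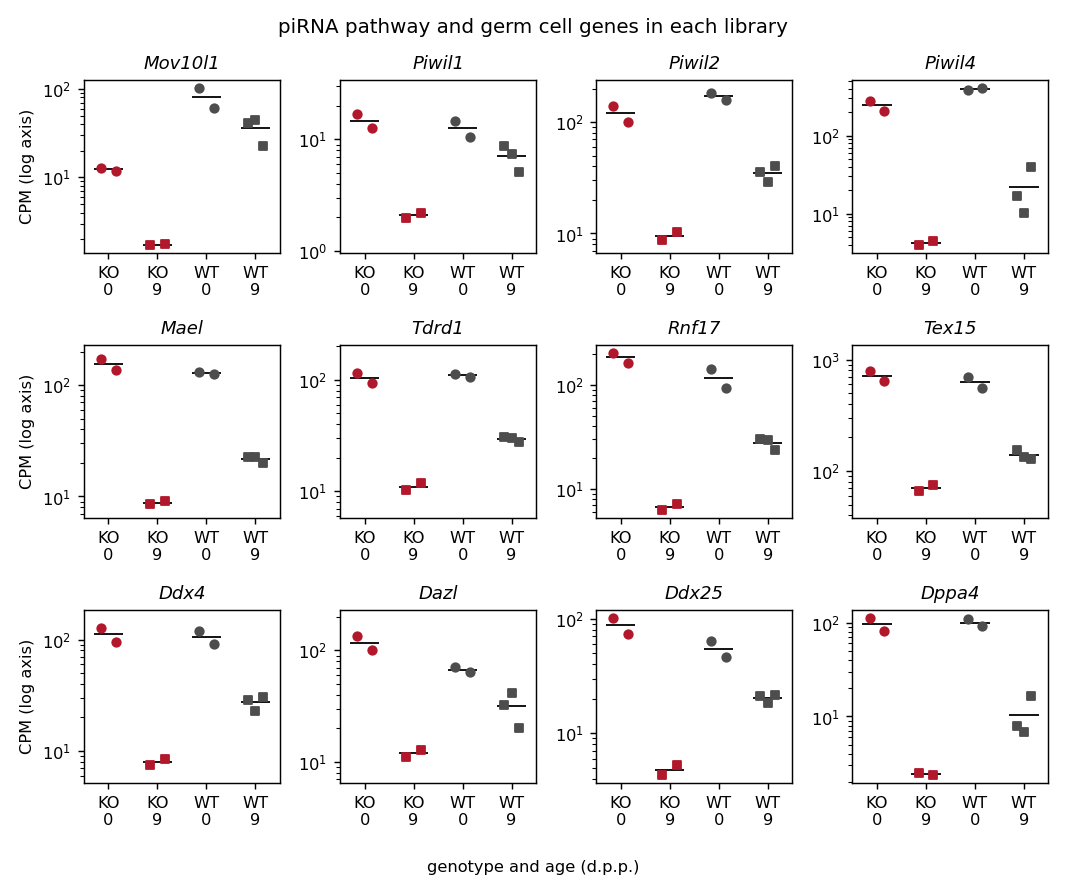
CPM (log axis, a separate range for each gene) of 12 piRNA pathway and germ cell genes in each library, red for Mov10l1-/- (KO) and grey for Mov10l1+/+ (WT), circles for 0 d.p.p. and squares for 9 d.p.p., with the mean of each group as a line. In every panel the 2 KO libraries of 9 d.p.p. lie below all other libraries.

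The steepness was not uniform within this group. *Lin28a*, an RNA-binding protein that blocks let-7 maturation, fell from 1.75 and 1.29 to 0.289 and 0.237 CPM in the knockout (log2 change -2.51 ± 0.312). In the wild type it went the other way, from 0.570 and 0.360 to 1.26, 1.59 and 0.754 CPM. *Rbm44* fell by 0.58 on the log2 scale in the knockout while the wild type of 9 d.p.p. held 38.4, 37.6 and 7.73 CPM, the last being the library whose animal code begins like that of the knockout animal. The fall of *Rbm44* did not pass in the summed fit (adjusted p = 0.46).

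Spermatogonial transcription and signalling genes divided. Of 20 members 14 fell, 2 rose and 4 did not pass the test, with a median log2 change of -0.95. With the knockout libraries of 9 d.p.p. summed and the spread taken with the wild type, 9 fell and 1 rose. *Egr4*, an early growth response factor of male germ cells, fell from 113 and 83.9 to 3.26 and 3.32 CPM (log2 change -4.89 ± 0.157). *Sall4*, a zinc finger factor of gonocytes and spermatogonia, fell from 71.5 and 61.4 to 5.61 and 6.21 CPM (log2 change -3.47 ± 0.108). *Taf4b*, a germ cell subunit of TFIID, had a log2 change of -2.98, and *Sohlh1*, a factor of differentiating spermatogonia, of -2.51.

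Genes of the GDNF and FGF signalling that maintains spermatogonial stem cells gave mixed values. *Gfra1*, the GDNF co-receptor, fell from 10.6 and 7.05 to 2.08 and 2.47 CPM (log2 change -1.94 ± 0.22). Its partner *Ret* went from 2.55 and 1.70 to 3.78 and 4.04 CPM, a log2 change of 0.90 ± 0.218 with an adjusted p of 0.0085, which did not pass in the summed fit (adjusted p = 0.37). The wild-type libraries of 9 d.p.p. held 20.1, 25.2 and 2.93 CPM of *Ret*, so the first 2 stood apart from both the third and the knockout.

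*Fgfr3*, an FGF receptor of undifferentiated spermatogonia, showed the same split. It fell from 14.8 and 16.6 to 3.26 and 3.27 CPM in the knockout (log2 change -2.26 ± 0.132), while the wild type was at 6.27 and 5.56 CPM at birth and 24.2, 26.8 and 2.22 CPM at 9 d.p.p. The fall of *Fgfr3* did not pass in the summed fit (adjusted p = 0.065). *Zbtb16*, a repressor that keeps spermatogonia undifferentiated, was at 3.61 and 3.59 CPM and then 4.52 and 4.01 CPM in the knockout (adjusted p = 0.18), beside 11.7, 10.8 and 3.23 CPM in the 9 d.p.p. wild type. *Kit*, the receptor of differentiating spermatogonia, fell from 17.5 and 17.4 to 10.6 and 11.1 CPM (log2 change -0.67), with an adjusted p of 0.1 in the summed fit. *Mycn*, a growth regulator not restricted to germ cells, rose from 49.5 and 43.3 to 113 and 114 CPM (log2 change 1.30 ± 0.0806).

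Genes of meiotic chromosomes, known from later spermatocytes, were also read at birth and fell. Of 17 members 13 fell, *Sun1* rose, and *Tex12*, *Meioc* and *Spidr* did not pass, with a median log2 change of -1.82 in the knockout beside 0.16 in the wild type. In the summed fit 10 fell and none rose, and *Rec114*, *Syce1* and *Sycp1* did not pass (adjusted p = 0.11, 0.015 and 0.011). *Stag3*, a meiotic cohesin subunit, fell from 113 and 87.0 to 5.64 and 5.87 CPM (log2 change -4.10 ± 0.134), and in the wild type from 72.3 and 52.7 to 18.5, 15.5 and 10.7 CPM. *Brdt*, a bromodomain protein of the testis, fell from 7.92 and 7.46 to 0.977 and 0.609 CPM (log2 change -3.27), close to the wild-type change of -2.99.

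*Majin*, which tethers telomeres to the nuclear envelope, had a log2 change of -2.92. *Hormad1*, of the chromosome axis, fell from 11.4 and 9.96 to 1.92 and 2.03 CPM in the knockout. The 3 wild-type libraries of 9 d.p.p. held 5.50, 4.37 and 2.07 CPM of it, so the third reached the knockout level. *Sycp3*, of the same axis, had a log2 change of -1.94 ± 0.18. *Sun1*, a nuclear envelope protein found in many cells, went from 69.5 and 61.0 to 78.9 and 83.8 CPM (log2 change 0.33, adjusted p = 0.0095), a rise that did not pass in the summed fit (adjusted p = 0.038) and turned into a log2 change of -0.22 with library totals alone.

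Markers of Sertoli cells rose. All 6 of the list rose, against 31.7% of all genes, with a median log2 change of 2.19, and their summed level went from 1654 and 1302 to 4229 and 4374 CPM. The wild-type sums were 2176 and 2522 CPM at birth and 3929, 3976 and 4063 CPM at 9 d.p.p. The knockout libraries thus lay below the wild type at birth and above it at 9 d.p.p. *Clu* made up most of each of these sums, so they mainly follow that gene. In the wild type 4 of the 6 markers rose. The markers of germ cells, whose 6 genes belong to the lists above, went from 762 and 588 CPM summed to 51.8 and 58.5 CPM, and in the wild type from 684 and 585 to 169, 165 and 152 CPM. The part of cell shares in these changes was not tested.

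*Inha* (KB708150.1, 3476201 to 3479161, minus strand), the alpha subunit of inhibin with which Sertoli cells restrain the pituitary, rose from 72.8 and 69.0 to 600 and 628 CPM (log2 change 3.13 ± 0.0899, adjusted p = 5.3e-06). The wild-type libraries went from 108 and 138 to 394, 477 and 515 CPM. *Inhbb*, a beta subunit, rose from 140 and 112 to 396 and 419 CPM (log2 change 1.71 ± 0.112), within the range of the 401, 385 and 424 CPM of the wild type at 9 d.p.p. *Sox8*, a transcription factor of Sertoli cells, rose from 10.5 and 9.44 to 63.6 and 61.7 CPM (log2 change 2.66), and *Clu* and *Kitl* had log2 changes of 1.39 and 0.89.

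The wider group of inhibin, activin and TGF-beta genes moved in both directions, 4 of 12 rising and 6 falling, beside 31.7% and 29.9% of all genes. Of the 1027 genes with a symbol 366 rose and 478 fell, so these counts are near that share. *Fst*, the activin antagonist follistatin, rose from 0.619 and 0.628 to 4.05 and 4.35 CPM (log2 change 2.76 ± 0.201), whereas the wild type was at 1.44 and 1.36 CPM and then 1.83, 0.911 and 1.89 CPM. The ligand gene *Tgfb1* fell from 96.3 and 73.8 to 4.11 and 4.28 CPM (log2 change -4.32 ± 0.140), and *Bmp2* from 9.39 and 9.38 to 3.62 and 3.5 CPM (log2 change -1.39). *Ltbp1*, which stores latent TGF-beta in the matrix, fell from 80.6 and 166 to 29.5 and 21.9 CPM, with a wide gap between the 2 newborn animals.

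All 11 genes of linker, H2A and H2B histones in the list rose, by log2 changes of 1.65 to 2.86, while *Macroh2a2*, which encodes a macroH2A variant, fell from 38.3 and 34.8 to 18.7 and 21.7 CPM (log2 change -0.84, adjusted p = 0.00034). The sum of the 11 went from 1215 and 1093 to 5420 and 5489 CPM in the knockout and from 1513 and 1879 to 3887, 4476 and 5142 CPM in the wild type, where the third library of 9 d.p.p. came nearest to the knockout. Histone messages without poly(A) tails are kept by ribosomal RNA depletion. The linker histone gene *H1f1* rose from 120 and 103 to 782 and 830 CPM (log2 change 2.86 ± 0.105), *H2bc18* from 111 and 96.9 to 734 and 743 CPM (2.84 on the log2 scale) and *H1f3* from 107 and 101 to 708 and 683 CPM (2.76 on the log2 scale). Histone genes have near-identical copies, and reads with several matches were split between them, so single values are uncertain.

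Other chromatin genes went both ways, with 15 of the 22 histone and chromatin genes rising and 6 falling. *Chd7*, a chromatin remodeller, fell from 109 in both newborn libraries to 7.07 and 6.52 CPM (log2 change -3.99 ± 0.0902), and in the wild type from 65.6 and 48.6 to 12.2, 12.1 and 10.5 CPM. *Kdm1b*, a demethylase of H3K4 needed for methylation of imprinted genes in oocytes, fell from 171 and 131 to 16 and 16.2 CPM (log2 change -3.21), and *Cecr2* had a log2 change of -1.65. *Tet1* and *Ezh2* rose by log2 changes of 0.70 and 0.56, and the rise of *Ezh2* did not pass in the summed fit (adjusted p = 0.015).

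Of 16 cell cycle and replication genes 9 rose and 4 fell, beside 31.7% and 29.9% of all genes, and 5 rose with library totals alone. *Cdkn2c*, an inhibitor of CDK4 and CDK6, rose from 18.8 and 19.7 to 61.8 and 64.4 CPM (log2 change 1.73 ± 0.0856). *Pbk*, a mitotic kinase, rose from 49.0 and 42.7 to 97.5 and 104 CPM (1.15 on the log2 scale). *Tcf19* and *Lmnb1* had log2 changes of 1.05 and 0.97. *Cdkn1c*, an imprinted inhibitor of the cycle, fell from 77.1 and 84.7 to 28.1 and 31.7 CPM (log2 change -1.43), and *Atr*, a kinase of the replication checkpoint, and *Cdk6* had log2 changes of -1.07 and -0.90.

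Genes of mitochondrial respiration and of the mitochondrial ribosome rose, 21 of 22, with none falling and a median log2 change of 1.28. *Ndufa3*, at 0.36, did not pass. *Timm8b*, of protein import, rose from 7.32 and 5.65 to 42.6 and 44.5 CPM (log2 change 2.76 ± 0.124). *Mrps28*, of the small ribosomal subunit, rose from 4.07 and 3.70 to 21.9 and 23.9 CPM (2.57 on the log2 scale), and *Chchd1* from 9.90 and 7.98 to 28.2 and 31.4 CPM (1.75 on the log2 scale). The summed level of the list went from 564 and 472 to 1185 and 1207 CPM, and in the wild type from 546 and 580 to 866, 957 and 1050 CPM.

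Chaperones of the endoplasmic reticulum rose too, 11 of 13 with none falling and a median log2 change of 0.86, although with library totals alone 6 rose and 1 fell. *Creld2* rose from 17.4 and 14.8 to 104 and 108 CPM (log2 change 2.73 ± 0.0926). *Sec61b*, of the translocon, and *Xbp1*, a transcription factor of the unfolded protein response, had log2 changes of 2.13 and 2.00. The chaperone gene *Hspa5* had a log2 change of 1.14. The list summed to 2815 and 2417 CPM at birth and 4413 and 4716 CPM at 9 d.p.p. in the knockout, beside 3083, 3585 and 4077 CPM in the wild type of 9 d.p.p.

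Sterol and fatty acid genes rose in 10 of 16 cases, beside 31.7% of all genes. *Elovl2*, which elongates the polyunsaturated fatty acids that the testis is rich in, rose from 4.93 and 4.07 to 48.5 and 51.6 CPM (log2 change 3.49 ± 0.112), beside 24.9, 34.2 and 40.8 CPM in the wild type of 9 d.p.p. *Cpt1a*, which admits fatty acids to mitochondria, rose from 14.1 and 14.0 to 84.8 and 85.0 CPM (log2 change 2.61), and *Elovl7* had a log2 change of 1.75. The 3 members that fell were *Cyp27a1*, *Acsl1* and *Tecr*, with log2 changes of -1.69, -1.18 and -0.44, of which only that of *Acsl1* passed in the summed fit. Scaling by library totals alone left 6 members falling.

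**Figure D3:**
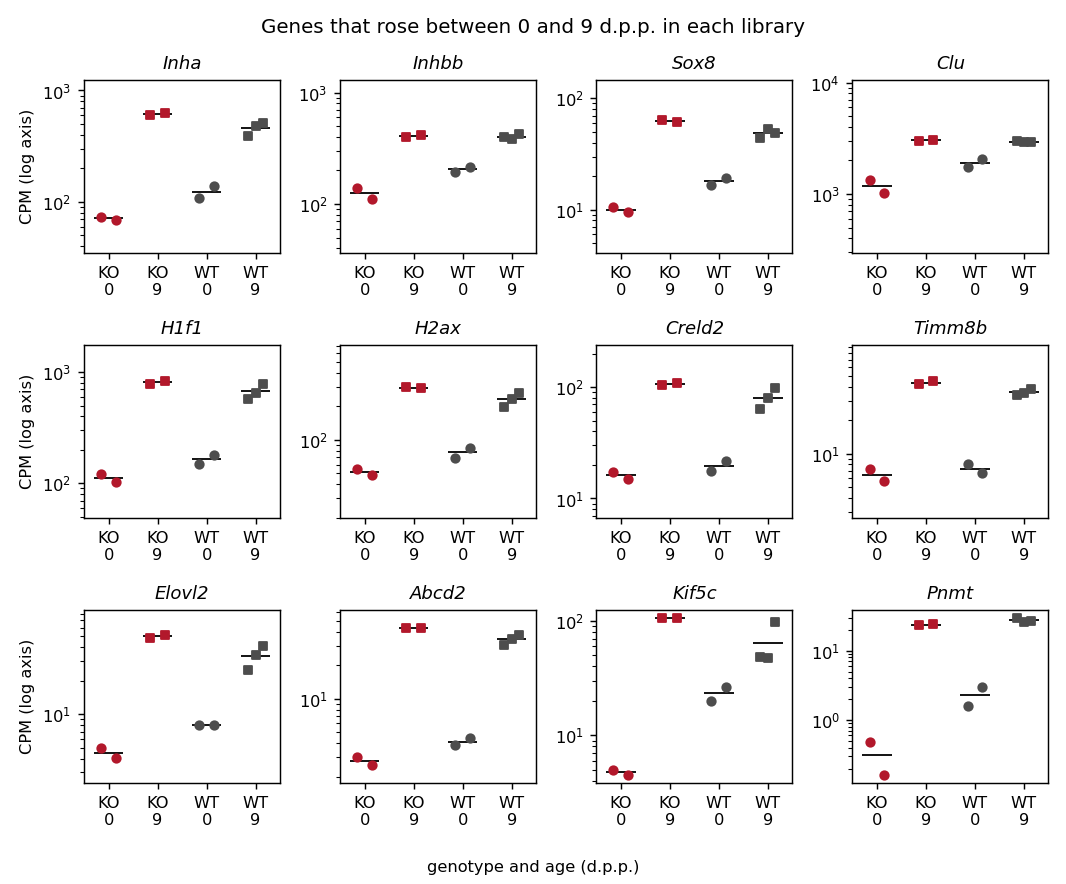
CPM (log axis, a separate range for each gene) of 12 genes that rose in the knockout, with symbols, colours and lines as in the plot of germ cell genes. In every panel the KO libraries of 9 d.p.p. lie above those of 0 d.p.p. and, in all panels but those of Inhbb, H1f1 and Pnmt, above all WT libraries as well.

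Genes of fetal growth and imprinting fell in 7 of 10 cases, beside 29.9% of all genes. *Igf2*, the fetal growth factor, was at 212 and 411 CPM in the newborn littermates and at 28.1 and 29.7 CPM at 9 d.p.p. (log2 change -3.43 ± 0.317). *Igf2bp3*, which binds its message, fell from 43.9 and 42.0 to 5.39 and 5.70 CPM (log2 change -2.94), and *Trim71*, a target of let-7 microRNAs, from 46.0 and 38.5 to 5.16 and 5.42 CPM (log2 change -2.98). *Ndn*, an imprinted gene, rose from 35.1 and 28.8 to 51.6 and 54.1 CPM (log2 change 0.74), which did not pass in the summed fit (adjusted p = 0.039).

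Of 27 extracellular matrix genes 14 fell and 6 rose, beside 29.9% and 31.7% of all genes. The falls are near the share among the 1027 genes with a symbol, of which 478 fell and 366 rose. *Tnc*, the matrix protein tenascin C, was at 116 and 266 CPM in the newborn libraries and at 13.7 and 10.4 CPM at 9 d.p.p. (log2 change -3.99 ± 0.416), and *Col12a1* went from 243 and 535 to 38.9 and 28.4 CPM (-3.53 on the log2 scale). For both, and for *Igf2*, the second newborn library lay far above the first, and both newborn libraries were above those of 9 d.p.p. *Fbln1* fell from 69.5 and 88.9 to 7.72 and 7.11 CPM (log2 change -3.41). Rising matrix genes were led by *Col9a2*, from 11.9 and 9.51 to 72.1 and 78.3 CPM (log2 change 2.83), *Col4a3*, a basement membrane collagen (2.17 on the log2 scale), and *Col9a1* (1.87 on the log2 scale).

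**Figure D4:**
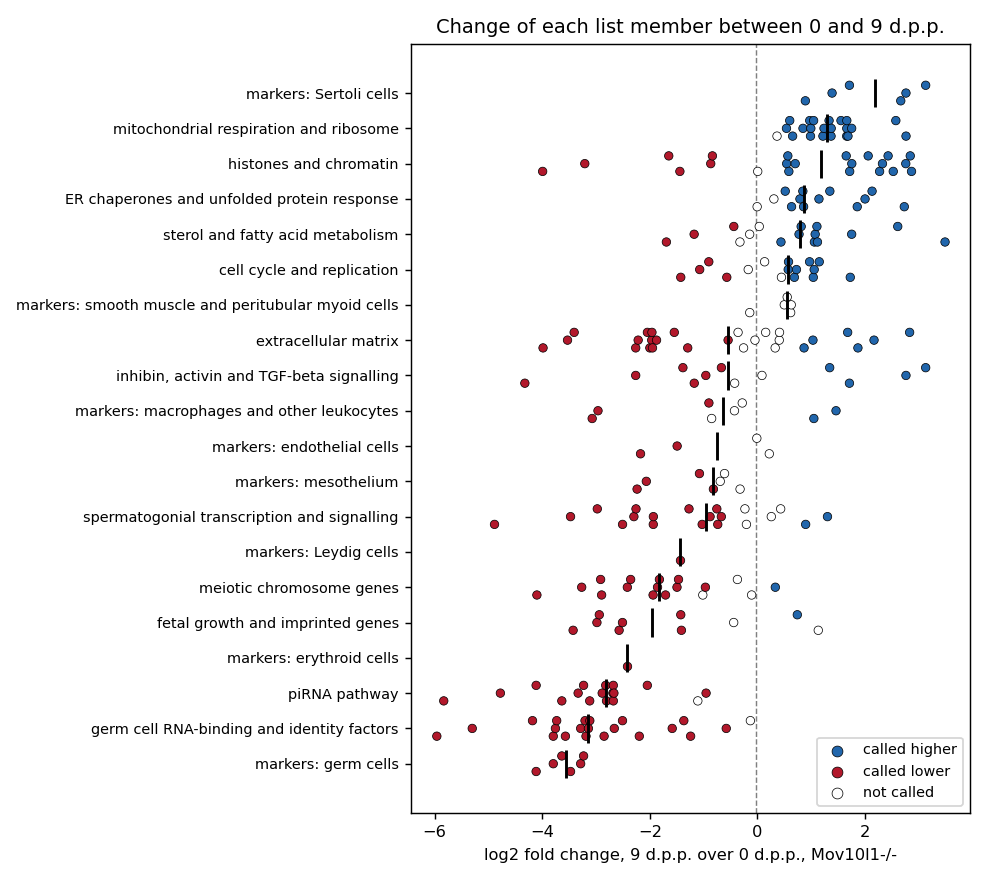
Log2 change from 0 to 9 d.p.p. in the knockout for each tested member of the 20 gene lists, blue for genes that rose, red for genes that fell and white for genes that did not pass the test, with the list's median as a bar and the median of all genes as a dashed line. The lists are ordered by their median, from the germ cell markers at -3.56 to the Sertoli cell markers at 2.19.

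The largest rises among genes with a symbol belonged to genes of varied function. *Pvalb*, the calcium buffer parvalbumin, went from 0.0354 and 0.144 to 6.8 and 7.16 CPM (log2 change 6.27 ± 0.368), from 2 and 8 counts to 376 and 423. *Pnmt*, which converts noradrenaline to adrenaline, rose from 0.477 and 0.161 to 23.7 and 23.9 CPM (log2 change 6.22 ± 0.282), below the 29.9, 26 and 26.6 CPM of the wild type at 9 d.p.p. Also among them were *Abcd2*, a peroxisomal transporter of fatty acids, from 3.01 and 2.55 to 43.2 and 43.4 CPM, *Fabp3*, a fatty acid binding protein, from 5.99 and 4.49 to 64.3 and 66.9 CPM, and *Acsbg1*, an acyl-CoA synthetase, from 42.1 and 33.4 to 437 and 436 CPM. Their log2 changes were 3.98, 3.66 and 3.55. *Cytip*, *Itgbl1*, *Fam241a* and *Pdcd1* had log2 changes of 4.04, 3.37, 3.37 and 3.36.

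*Kif5c*, a kinesin motor best known from neurons, rose from 5.00 and 4.49 to 107 and 105 CPM (log2 change 4.50 ± 0.0897). The wild-type libraries went from 20.0 and 26.6 to 48.4, 47.1 and 98.1 CPM, so the third was near the knockout. It lies on KB708143.1 from 10003844 to 10139859, and the gene *Lypd6b*, named here after its values were seen, lies on the same scaffold from 10319987 to 10337642, both on the plus strand. *Lypd6b* fell from 43.2 and 32.2 to 5.90 and 6.79 CPM in the knockout and from 30.9 and 19.6 to 1.0, 0.857 and 0.901 CPM in the wild type.

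Beside *Nxf7*, *Piwil4*, *Dppa4*, *Egr4* and *Rnf17*, the largest falls were of several kinds. *Gpr61*, an orphan receptor, fell from 4.30 and 4.29 to 0.0724 and 0.135 CPM (log2 change -5.31 ± 0.301). *Pramel1*, of a family active in germ cells, fell from 14.7 and 13.4 to 0.525 and 0.643 CPM (-4.56 on the log2 scale), *Foxr1*, a forkhead gene, from 12.9 and 9.11 to 0.488 and 0.474 CPM (-4.50) and *Lpcat4*, an acyltransferase of phospholipids, from 99.8 and 72.5 to 3.80 and 3.86 CPM (-4.47). *Abca16* and *Serpina6* had log2 changes of -4.73 and -4.69. *Serpina6*, which encodes the binding globulin of corticosteroids, had a log2 change of -6.91 in the wild type, from 8.40 and 12.1 to 0.0449, 0.128 and 0.377 CPM.

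Genes without a symbol reached larger changes. ENSMAUG00000006046 rose from 0.460 and 0.395 to 188 and 279 CPM (log2 change 9.10) and ENSMAUG00000006686 from 0.283 and 0.413 to 92.9 and 112 CPM (8.20 on the log2 scale), and their log2 changes in the wild type were 9.03 and 8.12. ENSMAUG00000010391 had 268 and 200 counts at birth and 0 in both libraries of 9 d.p.p., and at a floor of 3 counts a library it was at least 79.3-fold lower. ENSMAUG00000003336 went from 818 and 654 to 3 and 0 counts, at least 249-fold lower at the same floor. In the newborn wild type the first of these had 10 and 6 counts and the second 74 and 43.

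Markers of other cell types changed less uniformly. *CYP11A1*, the side chain cleavage enzyme with which Leydig cells begin steroid synthesis, fell from 81.3 and 80.2 to 28.7 and 30.3 CPM (log2 change -1.44 ± 0.0773), while the wild type was at 41.3 and 38.7 CPM and then 38.7, 41.0 and 24.7 CPM. None of 5 genes of smooth muscle and peritubular myoid cells passed the test in edgeR, although 4 had an unadjusted p under 0.05, and 4 of them passed as higher in DESeq2. Their sum was 507 and 780 CPM at birth and 880 and 859 CPM at 9 d.p.p. Of 4 endothelial genes *Vwf* and *Flt1* fell, by log2 changes of -2.17 and -1.49.

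Of 8 genes of macrophages and other leukocytes 3 fell, *Cd3e*, *Ighm* and *Nckap1l*, and 2 rose, with *Il10ra* among them. These counts are near the 29.9% and 31.7% of all genes that fell and rose. In the summed fit the same 3 fell and neither rise passed (adjusted p = 0.014 for *Il10ra*). *Ighm*, the heavy chain of IgM, went from 25.6 and 22.1 to 2.53 and 3.5 CPM. *Hbb-y*, an embryonic globin gene, went from 52.0 and 37.4 to 6.53 and 9.93 CPM, and in the newborn wild type it was at 15.4 and 13.3 CPM. Of 7 mesothelial genes *Lrrn4*, *Krt7*, *Krt18* and *Krt8* fell, of which *Krt7* alone passed in the summed fit (adjusted p = 0.012, 0.038 and 0.052 for *Lrrn4*, *Krt18* and *Krt8*). The list summed to 39.6 and 32.8 CPM at birth and 13.9 and 14.2 CPM at 9 d.p.p. The part of these cells in the other changes was not tested.

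The last question was whether development differed from that of the wild type. Over 15916 genes tested in both genotypes the direction was mostly shared. Genes called in both numbered 7322, which were 74.3% of the knockout's calls and 86.6% of the wild type's, and 7279 of them moved the same way and 43 the opposite way. Across genes the log2 changes had a Spearman correlation of 0.888 and a Pearson correlation of 0.878, given as a description since genes are not independent replicates. The change was larger in size in the knockout for 67.3% of the genes, and for 66.4% of those without a symbol, with a median size of 0.79 beside 0.61 on the log2 scale.

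**Figure D5:**
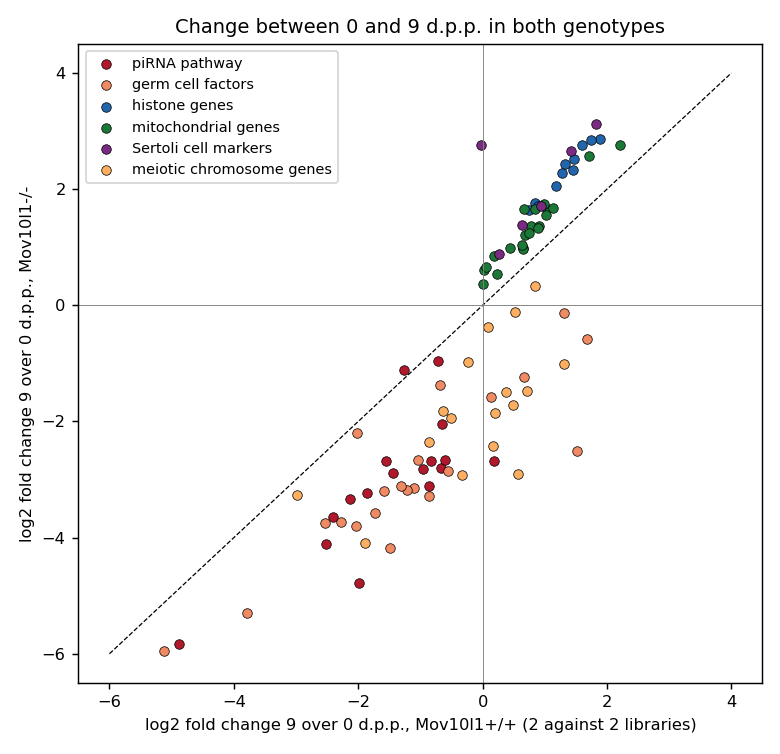
Log2 change from 0 to 9 d.p.p. of the members of 6 gene groups in the wild type (horizontal axis, 2 libraries of each age) and in the knockout (vertical axis), with the dashed line marking equal changes. Most germ cell, piRNA pathway and meiotic genes lie below the line, and histone genes, mitochondrial genes and Sertoli cell markers above it.

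Tested as an interaction of age and genotype over 8 libraries, with the first 2 wild-type libraries of 9 d.p.p., the change was more positive in the knockout for 209 genes (1.24% of 16808) and more negative for 521 (3.1%), in all 4.34%. This count was fragile. It was 72 and 174 with all 3 wild-type libraries, and with these and the counts of the single knockout animal summed it was 1 and 3, with 2907 genes at an unadjusted p under 0.05. The one gene of these 4 with a symbol was *Ddx25*, whose change was lower by 2.76 on the log2 scale (adjusted p = 0.0098). Leaving out either knockout library of 9 d.p.p., the second newborn wild-type library or either wild-type library of 9 d.p.p. lowered both counts by over 1.5 times, to between 35 and 94 and between 169 and 294.

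Within the groups, 12 of 17 piRNA pathway genes, 18 of 21 germ cell factors and 11 of 17 meiotic genes had a more negative change in the knockout over the 8 libraries, and none of these 3 groups held a gene with a more positive one. Of the 1027 genes with a symbol 287 had a more negative change and 107 a more positive one, beside 3.1% and 1.24% of all genes. The study's list of genes that differ between genotypes at 9 d.p.p. holds 16, 19 and 13 members of these 3 groups. These counts thus follow in large part from how the members were chosen. Including the third wild-type library, the calls of *Mov10l1*, *Piwil2*, *Tdrd5* and *Gpat2* were lost in the first group. In the second group those of *Rbm44*, *D1Pas1*, *Tex14*, *Dppa4*, *Tfap2c* and *Nxt2* were lost. Of the meiotic genes only *Stag3* still passed (adjusted p = 0.0060). Of the 17 piRNA genes the differences were largest for *Btbd18* (-2.87 on the log2 scale, adjusted p = 0.00088), *Rnf17* (-2.82, adjusted p = 0.00016) and *Tdrd5* (-2.28, adjusted p = 0.00054). With all 3 wild-type libraries the adjusted p values of these 3 were 0.0066, 0.0013 and 0.019. A difference of changes also takes in the newborn levels. At birth *Btbd18* was at 24.2 and 19.0 CPM in the knockout and 10.3 and 5.00 CPM in the wild type. *Rnf17* was at 206 and 165 against 142 and 94.7 CPM, and *Tdrd5* at 69.4 and 51.7 against 44.9 and 30.7 CPM. At 9 d.p.p. the knockout was below all 3 wild-type libraries for these 3 genes. How far the newborn knockout litter shaped these differences was not tested. For *Piwil4*, which started lower in the knockout than in the wild type, the difference was -0.97 and did not pass (adjusted p = 0.056). Of the 22 histone and chromatin genes 9 had a more positive change and 5 a more negative one, the latter being *Chd7* (-1.77 on the log2 scale), *Macroh2a2* (-1.20), *Ezh1* (-1.09), *Cecr2* (-0.88) and *Kdm2b* (-0.78). When the third wild-type library was included, only *H2bu2* of the more positive (adjusted p = 0.0064) and *Chd7* of the more negative (0.0021) still passed. Of the 6 Sertoli cell markers 3 had a more positive change, *Inha* (1.29 on the log2 scale, adjusted p = 0.0017), *Sox8* (1.22, adjusted p = 0.0015) and *Fst* (2.77, adjusted p = 0.0027). In edgeR no chaperone gene passed, although 9 of 13 had an unadjusted p under 0.05, and 1 mitochondrial gene did. That gene, *Cisd1*, did not pass with all 3 wild-type libraries (adjusted p = 0.013).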

How the data were processed

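Whole-testis RNA of *Mov10l1*-/- hamsters at 0 and 9 d.p.p. (2 libraries each) was compared. Per the labels and the study's methods, the authors depleted ribosomal RNA, made directional libraries, aligned reads to MesAur1.0 with STAR 2.7.3a, allowing up to 20 alignments a read, and counted over Ensembl release 99 exons with featureCounts 2.0.0. Reads with several matches, or over several genes, were counted as fractions, so near-identical and overlapping genes are uncertain. These estimated counts were deposited without scaling and were rounded here to whole numbers. The authors' own fold changes and p values were not used. No column of sample values was left without a sample (0).

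Totals were 47672066 and 44587268 counts at 0 d.p.p. and 65723978 and 71178944 at 9 d.p.p. in the knockout, and 20210612 to 77527451 in the wild type, which sets the precision for low genes. Counts of replicates differed beyond sampling noise (chi-square per degree of freedom 38.0 at 0 and 28.6 at 9 d.p.p. in the knockout, 28.6 between 2 wild-type animals of 9 d.p.p.), so none was counted as a duplicate, but both knockout libraries of 9 d.p.p. carry 1 animal code and p values at that age may measure technical spread alone.

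The 4 libraries were fitted with edgeR 4.0.16 (R 4.3.3, limma 3.58.1): TMM, the default filter on low counts, the quasi-likelihood test, Benjamini-Hochberg adjustment and a threshold of 0.01, as in the study, which used DESeq2. Standard errors were the log2 change over the square root of F. CPM was scaled by TMM over the 9 libraries of both ages. The floor was 3 counts a library. Alternatives were DESeq2 1.42.0, RLE factors, other scalings and filters, the replicate number as a block, joint and summed fits and leaving out each library; the scaling without genes above 0.5% of the counts and the separate wild-type change were chosen after seeing the data. Tables were made with pandas 2.3.3, scipy 1.17.1 and numpy 2.4.6 under Python 3.11.15.

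Symbols and positions came from the gene name and position columns of the study's supplementary tables, and cover 1044 genes; 0 identifiers matched the RefSeq table of another assembly. The comparison, the 12 lists of function and 8 of markers were chosen with earlier results of these data known. Named were the 12 largest rises and falls with a symbol, at least 1 CPM at one age and no overlap, 2 each without a symbol, 3 each way in each list, 6 each way in the interaction, and all piRNA pathway genes; a few genes that the rule names are not reported here, and other members named were chosen after their values were seen. On simulated data with 200 changed genes, the test of age called 167 changed 2-fold with 9 false calls (14976 genes). It called 193 changed 4-fold with 2 false calls (14986 genes). The interaction called 113 with 5 (15590 genes) and 192 with 7 (15578 genes). The simulated libraries were independent and took their spread from these same libraries, so animals and litters were not tested. Rises and falls were equal in number, so the scaling between ages was not tested either.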

Additional observations from a re-analysis of the deposited data

Results flagged for a closer look

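The 10 genes below, among those with the most negative and most positive difference between the change in the knockout and that in the wild type, are given here because the interaction test called them over the 8 libraries. The more negative were *Nobox* (-4.75), *Dlx2* (-4.48), *Cd3e* (-4.37), *Fgfr3* (-4.37), *Abca16* (-4.26) and *Lin28a* (-4.05), and the more positive *Pak6* (3.62), *Kif5c* (3.44), *Pvalb* (2.96) and *Fst* (2.77), all on the log2 scale. With all 3 wild-type libraries of 9 d.p.p. adjusted p stayed below 0.01 for *Cd3e* (0.0054), *Abca16* (0.0032), *Lin28a* (0.0054), *Pak6* (0.0045), *Kif5c* (0.0045) and *Fst* (0.0078), and was 0.012 for *Nobox*, 0.019 for *Dlx2*, 0.046 for *Fgfr3* and 0.039 for *Pvalb*. With the counts of the knockout animal of 9 d.p.p. summed as well, none of the 10 passed, the lowest adjusted p being 0.014, for *Abca16*.

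*Nobox*, an oocyte transcription factor, was at 3.98 and 2.48 CPM and then 0.488 and 0.406 CPM in the knockout, and in the wild type at 1.39 and 0.999 CPM and then 4.39, 4.85 and 1.07 CPM. The T cell gene *Cd3e* went from 4.19 and 2.83 to 0.398 and 0.423 CPM in the knockout and from 1.54 and 1.16 to 3.16, 3.57 and 1.34 CPM in the wild type. For both genes, and for *Fgfr3* as given above, the third wild-type library of 9 d.p.p. lay below the first and second. *Abca16* was at 4.24 and 4.25 CPM in the newborn knockout, 0.109 and 0.203 CPM at 9 d.p.p., and between 0.398 and 0.888 CPM in all 5 wild-type libraries. *Dlx2*, a homeobox gene, was at 2.03 and 1.06 CPM and then 0.0724 and 0.203 CPM in the knockout.

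*Pak6*, a protein kinase, rose from 1.79 and 1.96 to 7.47 and 7.80 CPM in the knockout and went from 7.22 and 9.71 to 1.87, 3.75 and 4.90 CPM in the wild type. Of the 8 fits that each left out a library, the call passed in 1 for *Pvalb*, in 4 for *Dlx2* and in 5 for *Fst*, and in all 8 for the other genes given here.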

How the results depend on the processing

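With 1 knockout animal of 9 d.p.p. and 1 litter of 0 d.p.p. no alternative tests animals or litters, and low genes are limited by depth. Of the 9947 genes called between ages, 6869 (69.1%) kept their call under every alternative other than another scaling. Calls higher and lower were 5078 and 4619 with DESeq2, 5079 and 4815 with RLE factors, 5275 and 4873 of 20610 without a filter, 4584 and 4521 of 14576 with at least 10 counts in every library, 4378 and 3895 with the 9 d.p.p. libraries summed, and 2598 and 8094 with library totals alone. Leaving out each library gave 4178 to 6023 higher and 3864 to 5472 lower, with the lone library assumed to vary like the other group. Same-numbered libraries of the 2 ages came from different animals by their codes. Across genes their deviations from the group means had a correlation of -0.0944. With so few libraries this cannot exclude a shared batch. The replicate block gave 5053 and 4920 calls between ages and 162 and 488 in the interaction. The interaction gave 72 and 174 with 3 wild-type libraries, 1 and 3 with the knockout summed as well, 247 and 452 with RLE factors, 449 and 968 without a filter, and 35 to 324 more positive and 169 to 528 more negative when each library was left out. Without newborn knockout replicate 1 the more positive count was 324 and without replicate 2 it was 115.

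Over the named genes and alternatives between ages, 1494 values kept direction and side of the threshold, 35 lost the call and 1 reversed, the log2 change of *Sun1*, at -0.22 with library totals alone. In the interaction 285 kept both, 80 lost the call, 6 gained it and 6 reversed, all of *Piwil3*, whose difference of 0.15 became -0.21 with 3 wild-type libraries, -0.20 with the knockout summed as well, and -0.33 to 0.82 when a library was left out, with -0.31 and -0.03 among them. The cause was not tested.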

Other observations

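The 43 genes called in opposite directions in the 2 genotypes, 29 of them with a symbol, were looked at after their values were seen. The interaction test over the 8 libraries called all 43. This was close to fixed by their choice from the same 8 libraries and is no further evidence. With the third wild-type library included it called 16 of them. In 22 of the 29 the knockout fell and in 7 it rose. *Krt8*, a keratin of simple epithelia, went from 9.94 and 6.67 to 4.69 and 4.62 CPM in the knockout and from 8.52 and 8.79 to 19.3, 17.8 and 10.5 CPM in the wild type. *Esrp1*, a splicing regulator of epithelial cells, went from 18 and 16.7 to 3.98 and 4.18 CPM in the knockout and from 5.72 and 2.76 to 14.9, 15.4 and 5.05 CPM in the wild type. *Tcp11l2* went from 38.3 and 32.7 to 26.6 and 25.5 CPM and from 23.7 and 17.9 to 48.1, 39.2 and 33.5 CPM. Among the 7, *Ucp2*, a mitochondrial carrier, rose from 67.0 and 53.0 to 99.9 and 89.5 CPM in the knockout and went from 92.2 and 93.5 to 64.8, 76.9 and 75.3 CPM in the wild type.

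In all 22 genes with a symbol that fell in the knockout and rose in the wild type, the third wild-type library of 9 d.p.p., which shares the beginning of its animal code with the knockout animal, was below both other wild-type libraries of that age. For *Etv4*, a target of GDNF and FGF signalling, the 3 libraries held 6.86, 6.89 and 1.61 CPM, beside 1.70 and 1.98 CPM in the knockout of 9 d.p.p. With the third library included, 13 of the 43 were still called in opposite directions. These genes were chosen by the other wild-type libraries, so the position of the third is given as a description with no test, and litter and genotype cannot be told apart from it.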
